A study of Mus musculus with 12 samples.

Results

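The peroxisome is a single-membrane organelle that shortens very long and branched fatty acids and bile acid precursors, starts the synthesis of ether lipids, and oxidises some amino and hydroxy acids with oxidases whose hydrogen peroxide is removed by catalase. Its proteins are made in the cytosol and brought in by the peroxins, the products of the Pex genes. In the kidney peroxisomes are most abundant in the proximal tubule. The data below concern 32 genes of this organelle, chosen by name, out of 23238 gene symbols. They are 12 peroxins and 20 metabolic genes, which encode matrix enzymes, the carrier of the Scp2 locus and the membrane transporter Abcd3.

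Kidney RNA of C57BL/6 mice was counted from its poly(A) ends by QuantSeq in 12 libraries. The group CKD TRF (4 libraries) had chronic kidney disease and time restricted feeding, a schedule that limits the hours at which mice can eat. The group CKD (4 libraries) had the disease alone, and the group Control (4 libraries) had neither. The labels give the same strain and tissue for the 3 groups and state neither how the disease was brought about, the hours of feeding, the age and sex of the mice, the hour of sampling, nor whether each library came from its own animal. The p-values therefore measure the spread between libraries, which may be technical. Depth was 14141307 to 17204197 reads in CKD TRF, 14507901 to 16852649 in CKD and 10985691 to 12806108 in Control. Levels are scaled reads, the authors' scaled read numbers, whose sum was 987502 to 1025504 in CKD TRF, 940904 to 978104 in CKD and 1076402 to 1179702 in Control libraries. Changes are differences of the deposited log2(scaled reads + 1) values with the SE from limma over 4 libraries per group, called at an adjusted p under 0.05. Each library held the tubule markers Lrp2 and Umod, whose means lay between 1082 and 1618 scaled reads in every group. Adipocyte marker transcripts were high in 5 diseased libraries (CKD 2, CKD 4, CKD TRF 1, CKD TRF 3 and CKD TRF 4), where the mean log2 value of 9 white and brown adipocyte markers was 2.47 to 4.44, against 0.20 to 0.94 in the other 3 diseased libraries and 0.00 to 0.25 in Control. All 32 genes passed the filter on low values, which kept 13943 genes.

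CKD kidneys were first set against Control kidneys, to see the effect of the disease. Most metabolic genes of the peroxisome fell and none rose, and fewer of the peroxins were called. Of the 20 metabolic genes 16 fell and none rose, with a median change of -0.66. Over all tested genes 45.4% were called, 21.8% as lower and 23.6% as higher, with a median change of 0.02. Without Control 1, 13 metabolic genes fell and none rose (median -0.57), beside 2625 lower and 2891 higher (39.6%) of all tested genes. The groups did not overlap for 16 of the 20 metabolic genes, and in all 16 CKD was lower, against 39.5% of all tested genes without overlap in either direction. All 20 values were below 0 as deposited, after median centring and after scaling to equal sums, and Cat alone stood above 0 after quantile normalization. Of the 12 peroxins 5 fell and 1 rose, with a median of -0.29, and 4 did not overlap between the groups. Without CKD 2 the counts were 3 lower and 0 higher, beside 2584 lower and 2804 higher (38.6%) of all tested genes. Of the peroxin values 10 were below 0 as deposited, 10 after median centring, 11 after quantile normalization and 8 after scaling to equal sums. The share of peroxins called in either direction, 50%, was near the 45.4% of all tested genes, and the share called lower was 41.7%, beside 21.8% of all tested genes.

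**Figure D1:**
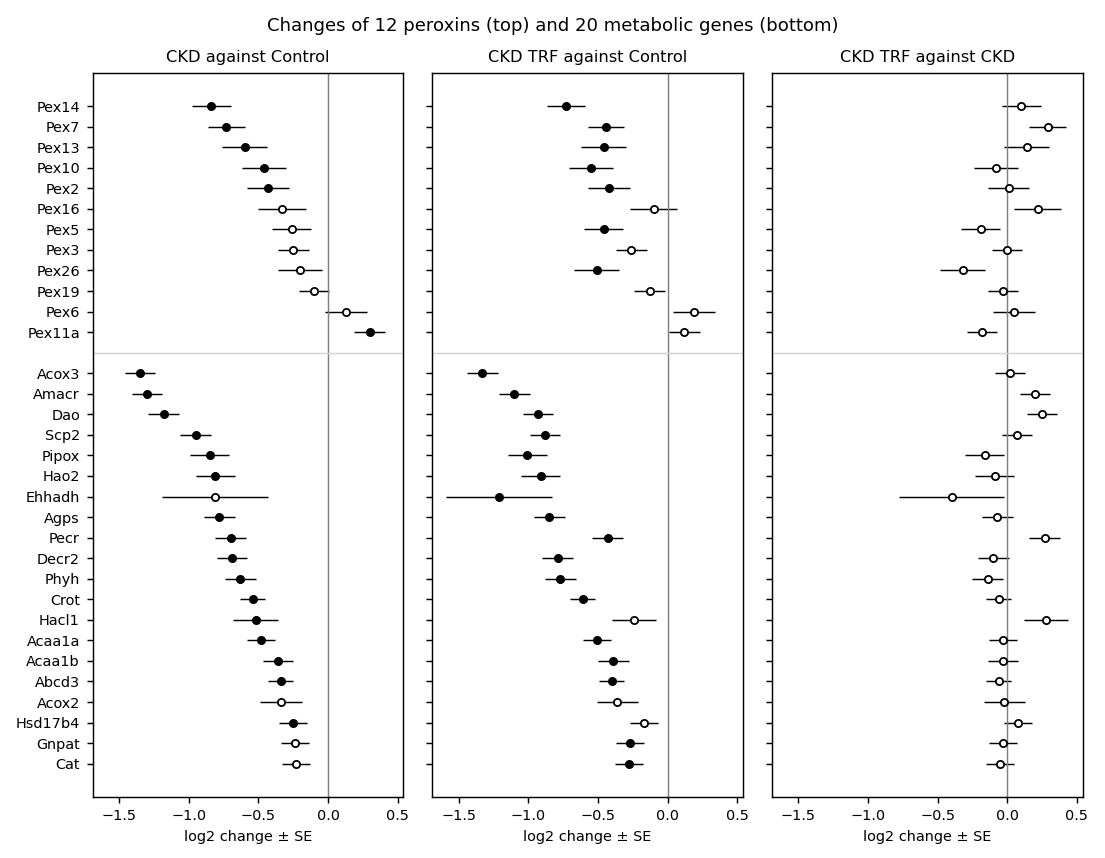
Each point is the log2 change of a gene with its SE from limma (4 libraries per group), for 12 peroxins above the line and 20 metabolic genes below it, and filled points passed an adjusted p of 0.05. The metabolic genes lie left of 0 in both comparisons with Control and around 0 between CKD TRF and CKD, where no point is filled.

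Promoters are shown for the members that mark the range of the changes in CKD: Acox3 and Dao with large falls, Pex14 with the largest fall of a peroxin, and Pex11a, which rose. The sequences are the 250 bases before a RefSeq transcript start in build GRCm38.p6 on the strand of the gene. They lie at chr5:35582784-35583033 (plus), chr5:114003634-114003883 (plus, the second of the 3 Dao starts at hand), chr4:149099844-149100093 (minus) and chr7:79743132-79743381 (minus). Capitals mark GC boxes (GGGCGGG or its complement CCCGCCC) and nuclear receptor half-sites (AGGTCA or its complement TGACCT).
Acox3: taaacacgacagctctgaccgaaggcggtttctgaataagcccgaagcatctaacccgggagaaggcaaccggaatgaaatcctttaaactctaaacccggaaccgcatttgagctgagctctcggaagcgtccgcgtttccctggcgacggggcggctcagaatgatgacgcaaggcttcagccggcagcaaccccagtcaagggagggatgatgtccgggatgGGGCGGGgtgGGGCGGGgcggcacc
Dao: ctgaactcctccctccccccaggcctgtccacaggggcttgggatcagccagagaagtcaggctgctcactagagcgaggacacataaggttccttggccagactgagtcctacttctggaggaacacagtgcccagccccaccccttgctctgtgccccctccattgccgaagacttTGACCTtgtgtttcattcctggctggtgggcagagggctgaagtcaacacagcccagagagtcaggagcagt
Pex14: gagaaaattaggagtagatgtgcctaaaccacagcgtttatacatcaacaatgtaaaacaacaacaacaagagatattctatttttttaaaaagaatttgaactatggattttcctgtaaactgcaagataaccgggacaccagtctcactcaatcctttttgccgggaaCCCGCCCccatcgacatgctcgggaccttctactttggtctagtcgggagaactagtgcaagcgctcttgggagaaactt
Pex11a: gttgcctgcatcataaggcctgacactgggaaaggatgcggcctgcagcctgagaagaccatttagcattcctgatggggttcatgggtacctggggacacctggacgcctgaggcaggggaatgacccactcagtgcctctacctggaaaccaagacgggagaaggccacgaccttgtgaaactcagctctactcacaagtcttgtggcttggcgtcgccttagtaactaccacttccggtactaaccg
The Acox3 stretch holds 2 GC boxes, the Dao stretch 1 half-site and no GC box, the Pex14 stretch 1 GC box and the Pex11a stretch neither motif. The half-site was in only this 1 of the 3 Dao stretches: that before the first of these starts holds 2 GC boxes and no half-site, and that before the third neither motif. All 3 Dao stretches lie inside the annotated gene (113999635 to 114025675), so the bases before its first annotated base were not searched.

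Windows from 250 bases before to 50 after a start were at hand for 28 of the 32 genes (10 peroxins and 18 metabolic genes) and were searched on both strands for 5 motifs, chosen with the changes known. The half-site AGGTCA was in 4 of the 28, the metabolic genes Scp2, Phyh, Dao and Cat, against 18.1% of 27025 genes with a window and 15.3% of the 10529 tested ones. The direct repeat of that half-site with 1 base between the copies, the form bound by PPAR-alpha, was in 0 of the 28 and in 0.0481% of all genes, and each such repeat also holds the half-site. The HNF4 motif CAAAGTCCA was in Abcd3 and Pipox, against 0.555% of all genes. GC boxes were in 16 of the 28 (5 peroxins and 11 metabolic genes), against 27.9% of all and 50% of tested genes, and CCAAT in 13 (3 peroxins and 10 metabolic genes), against 41.1% and 42.3%. These are matches of letters in short windows and not binding sites.

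The largest falls were those of Acox3 and Amacr, grouped here with the beta-oxidation enzymes. Acox3, an acyl-CoA oxidase for branched chains (chromosome 5, 35582981 to 35614208), had 96.9, 71.9, 93.1 and 88.4 scaled reads in CKD, against 222, 188, 274 and 219 in Control. Every CKD library thus lay below every Control library. The change was -1.35 ± 0.11, or 0.392-fold (limma adjusted p = 2.2e-08). Amacr, the racemase that turns branched-chain and bile acid intermediates into the form the oxidases accept (chromosome 15, 10981756 to 10996624), had 95.5, 126, 113 and 115 scaled reads in CKD and 321, 260.0, 244 and 289.6 in Control. It too parted the groups, at -1.30 ± 0.11 (limma adjusted p = 2.5e-08). Scp2, whose locus encodes a peroxisomal thiolase and a sterol carrier with a shared 3′ end, had 448, 433, 477 and 498 scaled reads in CKD, against 1103, 884, 746 and 889.8 in Control. The change was -0.95 ± 0.11 (limma adjusted p = 8.0e-07), and 3′ reads do not tell the products of this locus apart. Pecr, a trans-2-enoyl-CoA reductase that is only grouped here with these enzymes, had 373, 401, 449 and 485 scaled reads in CKD and 762, 774, 669 and 574 in Control (-0.70 ± 0.11, limma adjusted p = 5.5e-05).

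The other members of this route fell less or did not pass. Decr2, the reductase for unsaturated acyl-CoA, fell by 0.69 ± 0.11 (limma adjusted p = 3.4e-05). The thiolases Acaa1a and Acaa1b, which cleave the chain in the last step, fell by 0.48 ± 0.10 and 0.36 ± 0.11 (limma adjusted p = 7.4e-04 and 0.0143). These genes are close copies. The last 300 bases of their longest annotated coding transcripts, aligned end to end, were 60% identical, and the last 150 bases 43.2%. Shifted transcript ends lower such values, and whether reads of the pair can be told apart was not tested. Hsd17b4, the D-bifunctional protein, fell by 0.25 ± 0.10, near the threshold (limma adjusted p = 0.0388). Acox2, the bile acid precursor oxidase, stood at -0.34 ± 0.15 (limma adjusted p = 0.0794), and passed without Control 4 or CKD 1 (limma adjusted p = 0.0481 and 0.0198) and after median centring (limma adjusted p = 0.0216). Ehhadh, the L-bifunctional protein, had 30.3, 32.3, 24.8 and 20.1 scaled reads in CKD, against 164, 24.8, 25.8 and 46.5 in Control; its libraries are given because Control 1 stood out when the values were seen. Its change of -0.81 ± 0.38 did not pass (limma adjusted p = 0.0864) and was -0.22 ± 0.22 without Control 1 (limma adjusted p = 0.451). It passed without Control 2 or Control 3 (limma adjusted p = 0.0216 and 0.0238). Without Control 1 Acaa1b stood at -0.25 (limma adjusted p = 0.0642). The call of Hsd17b4 ended without any one of Control 1, Control 2, Control 4, CKD 1, CKD 2 or CKD 4 (limma adjusted p from 0.053 to 0.139).

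Oxidases of amino and hydroxy acids followed the same direction, and catalase did not pass. Dao, D-amino acid oxidase (chromosome 5, 113999635 to 114025675), had 91.1, 82.1, 109.9 and 104 scaled reads in CKD, against 229, 249, 206 and 197 in Control. No CKD library reached the level of any Control library (-1.18 ± 0.11, limma adjusted p = 4.2e-08). Pipox, which oxidises pipecolic acid and sarcosine, had 300.3, 177, 217 and 182 scaled reads in CKD and 481, 319, 378 and 389.5 in Control. CKD 1 came close to the lowest Control library, and the change was -0.85 ± 0.14 (limma adjusted p = 6.6e-05). Hao2, an oxidase of long-chain hydroxy acids, had 100.1, 64.9, 100.5 and 100.4 scaled reads in CKD, against 188, 141, 168 and 143 in Control (-0.81 ± 0.14, limma adjusted p = 9.1e-05). Cat, catalase, averaged 429 ± 42.8 scaled reads in CKD and 504 ± 55.4 in Control (SD, n = 4), a change of -0.23 ± 0.10 that did not pass (limma adjusted p = 0.0649). Its call moved with single libraries, since it passed without Control 4 or without CKD 1 (limma adjusted p = 0.046 and 0.0275).

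Ether lipid synthesis, alpha-oxidation and acyl transport added falls smaller than those of Acox3, Amacr and Scp2. Agps, which sets the ether bond of plasmalogens (chromosome 2, 75832177 to 75931350), had 143, 141, 137 and 130.2 scaled reads in CKD, against 244, 194, 235 and 287 in Control. The CKD libraries were close to each other and all below Control (-0.78 ± 0.11, limma adjusted p = 1.0e-05). Gnpat, the acyltransferase of the step before it, was lower in every CKD library than in every Control library but missed the threshold (-0.24 ± 0.10, limma adjusted p = 0.0627); it passed without Control 2 (limma adjusted p = 0.04). Phyh, the hydroxylase that begins the breakdown of phytanic acid, fell by 0.63 ± 0.11 and Hacl1, the lyase that cuts off the single carbon, by 0.52 ± 0.16 (limma adjusted p = 6.8e-05 and 0.0139). The call of Hacl1 ended without Control 1 or CKD 1 (limma adjusted p = 0.0672 and 0.0513). Crot, which hands shortened acyl groups to carnitine for export, fell by 0.54 ± 0.09, and Abcd3, the membrane transporter for branched-chain and bile acid CoA esters, by 0.34 ± 0.09 (limma adjusted p = 9.9e-05 and 0.00396). After quantile normalization Abcd3 stood at -0.01 and was not called (limma adjusted p = 0.947).

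**Figure D2:**
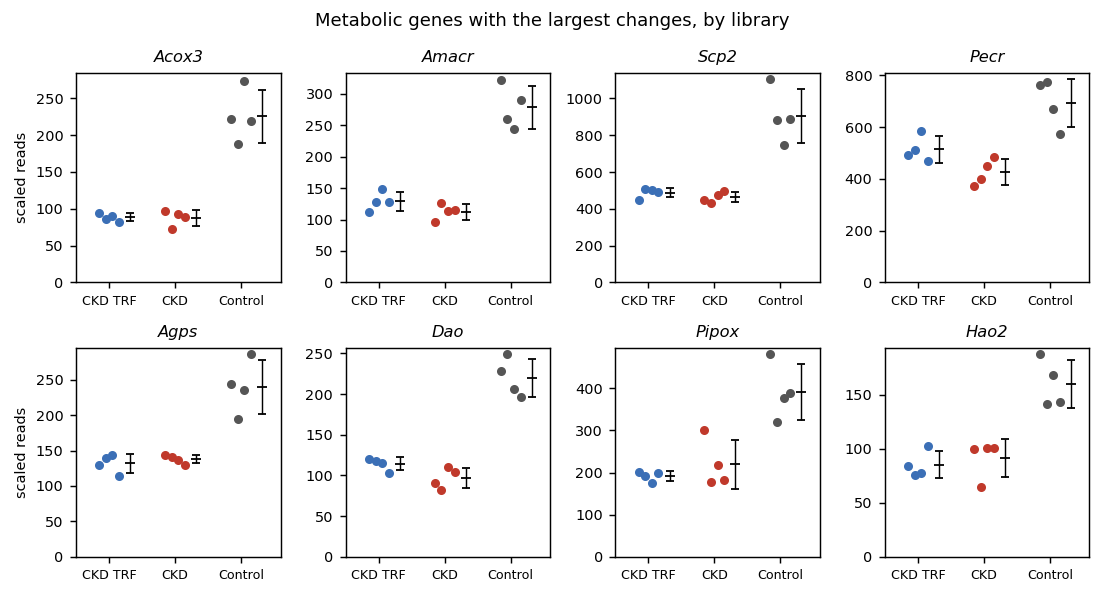
Scaled reads of the 8 metabolic genes with the largest called changes, with 1 point per library and the mean ± SD of each group (n = 4). In every panel the 4 CKD libraries lie below the 4 Control libraries, and the CKD TRF libraries overlap those of CKD.

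Among the peroxins, the docking proteins and the receptor Pex7 changed most. Pex14, the docking protein of the import channel (chromosome 4, 148960535 to 149099843), had 26.9, 19.5, 23.9 and 29.4 scaled reads in CKD, against 49.8, 44.4, 44.3 and 41.5 in Control. All CKD libraries lay below all Control libraries (-0.84 ± 0.14, limma adjusted p = 8.0e-05). Its partner Pex13 had 20.9, 22.0, 16.8 and 24.8 scaled reads in CKD and 39.5, 22.8, 33.5 and 35.4 in Control. Control 2 fell within the CKD range, and the change was -0.60 ± 0.16 (limma adjusted p = 0.00479). Pex7, the receptor for the N-terminal targeting signal used by the thiolases, Phyh and Agps (chromosome 10, 19860090 to 19907674), had 24.7, 22.9, 32.1 and 31.4 scaled reads in CKD, against 52.6, 42.2, 43.7 and 46.6 in Control (-0.73 ± 0.13, limma adjusted p = 1.8e-04). Pex5, the receptor for the far more common C-terminal signal, stood at -0.26 ± 0.14 (limma adjusted p = 0.130), and passed without Control 2 (limma adjusted p = 0.0427).

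Changes of the remaining peroxins were smaller or did not pass. Pex2 and Pex10, ubiquitin ligases that recycle the receptors, fell by 0.43 ± 0.15 and 0.46 ± 0.16 (limma adjusted p = 0.0224 and 0.0205). Pex2 was not called without Control 1, Control 2 or CKD 2 (limma adjusted p from 0.0574 to 0.0956), and Pex10 not without Control 4, CKD 2 or CKD 4 (limma adjusted p from 0.0547 to 0.0635). Pex6, an ATPase that pulls receptors out of the membrane, and its anchor Pex26 stood at 0.13 ± 0.15 and -0.20 ± 0.16 (limma adjusted p = 0.496 and 0.323). None of the 3 peroxins that insert membrane proteins was called. Pex3 stood at -0.25 ± 0.11, Pex16 at -0.33 ± 0.17 and Pex19 at -0.10 ± 0.11 (limma adjusted p = 0.0565, 0.116 and 0.5). Pex3 passed without Control 4 and Pex16 without Control 3 (limma adjusted p = 0.0398 and 0.0437).

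Pex11a, which promotes the division of peroxisomes, was the single member that rose. It had 107, 109.6, 88 and 84.9 scaled reads in CKD, against 75, 95, 73.4 and 72.1 in Control, where Control 2 lay within the CKD range; its libraries are given because of this direction, seen in the values. The change of 0.30 ± 0.11 passed as deposited (limma adjusted p = 0.0328). It was not called without any one of Control 1, Control 3, Control 4, CKD 1 or CKD 2 (limma adjusted p from 0.0709 to 0.118), nor after median centring (0.20, limma adjusted p = 0.157), which keeps its sign. Nor was Pex11a called with only the 2 groups compared (0.30, limma adjusted p = 0.0538). With adipocyte markers as a covariate it was not called either (0.34, limma adjusted p = 0.0822). Without the 5 libraries with adipocyte markers its change was 0.31 ± 0.16 and was not called.

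**Figure D3:**
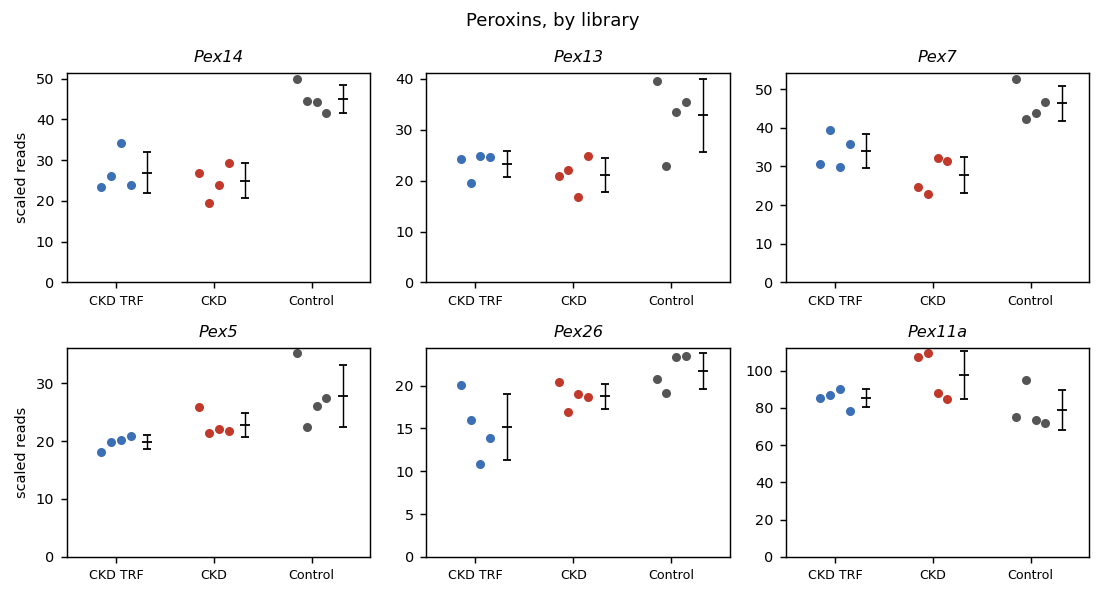
Scaled reads of 6 peroxins, with 1 point per library and the mean ± SD of each group (n = 4). Pex14 and Pex7 separate both diseased groups from Control, Pex13 does so except for Control 2, and Pex11a has its highest values in CKD 1 and CKD 2.

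Leaving out the 5 libraries with adipocyte markers leaves 2 CKD libraries. There 3 peroxins and 13 metabolic genes were still called as lower in CKD. Over all 13943 tested genes 29% were called there in either direction, 1940 as lower and 2097 as higher. The median changes of the peroxins and metabolic genes were -0.28 and -0.60 there. Pex7 and Pex14 among the peroxins, and 12 metabolic genes (Acox3, Amacr, Dao, Scp2, Pipox, Hao2, Agps, Pecr, Decr2, Phyh, Crot and Acaa1a), passed in CKD against Control as deposited and under each of the 24 alternatives run. Libraries scaled to equal sums left 12 metabolic genes and 3 peroxins called, of which 2 fell and Pex11a rose. Median centring moved the median of all tested genes to -0.08, and equal sums moved it to 0.23 and the calls over all genes to 4989 higher and 1547 lower, against 3297 and 3036 as deposited.

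**Figure D4:**
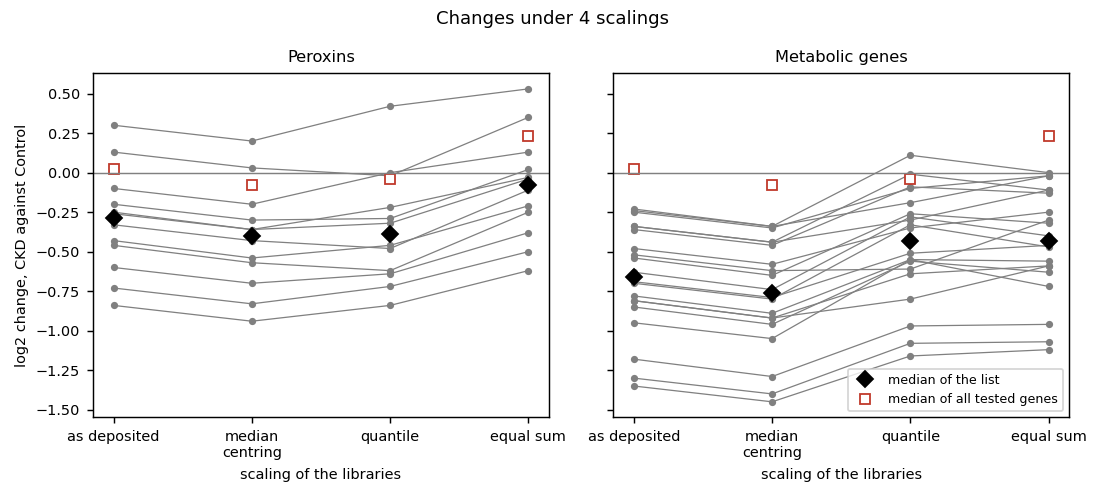
Log2 changes of CKD against Control for each peroxin (left) and metabolic gene (right) under 4 scalings of the libraries, with 1 grey line per gene, black diamonds for the median of the list and open squares for the median of all 13943 tested genes. The metabolic median lies at -0.66, -0.76, -0.43 and -0.43 and the peroxin median at -0.29, -0.40, -0.39 and -0.08, in the order drawn.

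Markers of the proximal tubule moved in the same direction. Of 18 such markers 14 fell in CKD and none rose, with a median change of -0.70, and their summed level was 31967 to 38812 scaled reads in CKD and 57399 to 74930 in Control. Most of that sum is Kap, an androgen-regulated kidney transcript, and without it the sum was 9956 to 11144 scaled reads in CKD and 14122 to 17364 in Control. Slc27a2 among the markers is also among the further peroxisomal genes counted here, and without it 13 of 17 fell (median -0.78). Hnf4a, a nuclear receptor needed for proximal tubule maturation, averaged 239.5 ± 27.9 scaled reads in CKD and 511 ± 38.8 in Control (SD, n = 4). The summed level of the 20 metabolic genes was 3452 to 3804 scaled reads in CKD and 5531 to 6668 in Control. Markers of macrophages (9 of 9) and fibroblasts (5 of 5) rose, with summed levels of 578 to 747 and 792 to 893 scaled reads in CKD, against 176 to 212 and 131 to 155 in Control. Of the markers of the loop of Henle and distal nephron 6 of 8 rose and 2 fell (median 0.56), of the urothelium 5 of 5 rose (median 1.69), and of podocytes 2 of 4 rose. In bulk kidney RNA fewer cells of a type and less RNA per cell cannot be told apart, and the part of these markers in the fall of the peroxisomal genes was not tested.

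Other genes of the organelle, taken from a list of 4 further peroxins and 45 further peroxisomal genes (both lists chosen with earlier results known), were counted in the same way. Of the 45, 42 were tested, with a median change of -0.40 in CKD. Of these 25 fell and 2 rose, beside 21.8% of all tested genes called lower and 23.6% called higher. The largest falls were Prdx5, a peroxide-reducing enzyme shared with mitochondria (-1.40 ± 0.15), the membrane channel Pxmp2 (-1.32 ± 0.10) and Mpv17l, a membrane protein (-1.10 ± 0.16), with limma adjusted p of 5.1e-07, 3.4e-09 and 1.4e-05. Pxmp2 averaged 63.8 ± 5.18 scaled reads in CKD and 161 ± 14.1 in Control (SD, n = 4). Abcd2, a fatty acyl-CoA transporter, rose by 1.14 ± 0.30 (limma adjusted p = 0.00461). Abcd2 was near the limit of detection in Control, at 0, 0.276, 0.510 and 0.548 scaled reads, where 3 reads are worth 0.255 to 0.306. Its CKD values of 1.56, 3.19, 0.697 and 2.89 scaled reads were higher in CKD 2 and CKD 4, which held adipocyte markers, than in CKD 1 and CKD 3. Of the 4 peroxins 2 fell and none rose, a share of 50% called, beside 45.4% of all tested genes. Pex11g, a relative of Pex11a, fell by 1.13 ± 0.15 to 10.9 ± 1.38 scaled reads in CKD, against 25.1 ± 4.00 in Control (SD, n = 4; limma adjusted p = 4.3e-06).

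CKD TRF was next set against CKD, for the effect of the feeding schedule in diseased kidneys. No peroxisomal gene passed the test. Over all 13943 tested genes limma called 0 (0%), 890 (6.38%) had an unadjusted p under 0.05, and limma voom on recovered reads also called 0; with no filter on low values 1 gene passed, which is not among the 32. An unadjusted p under 0.05 was seen for 1 of 12 peroxins and 2 of 20 metabolic genes. Dao had 120.5, 118, 116 and 103 scaled reads in CKD TRF and 91.1, 82.1, 109.9 and 104 in CKD, which overlap (0.25 ± 0.11, 95% interval 0.03 to 0.47, limma adjusted p = 0.738). Pecr stood at 0.27 ± 0.11 (95% interval 0.03 to 0.51, limma adjusted p = 0.738) and Pex7 at 0.29 ± 0.13 (95% interval 0.01 to 0.56, limma adjusted p = 0.779). Pex5 was the only 1 of the 32 whose groups did not overlap, with 18.1, 19.9, 20.2 and 20.9 scaled reads in CKD TRF, against 25.9, 21.4, 22.1 and 21.8 in CKD, beside 4.50% of all tested genes (-0.19 ± 0.14, limma adjusted p = 0.843). The median change was 0.01 for the peroxins and -0.03 for the metabolic genes. The 95% interval of the change lay within 1.5-fold in either direction for 11 of 12 peroxins and 18 of 20 metabolic genes, and within 2-fold for 12 and 19. The widest was that of Ehhadh, from -1.18 to 0.39. None of the 18 proximal tubule markers was called either, 16 of them stood above 0, and their summed level was 36441 to 43992 scaled reads in CKD TRF and 31967 to 38812 in CKD, or 11294 to 13078 in CKD TRF and 9956 to 11144 in CKD without Kap. Groups did not overlap for 1 of the 4 further peroxins and 1 of the 42 further peroxisomal genes tested. Far2, a fatty acyl-CoA reductase, averaged 103 ± 4.63 scaled reads in CKD TRF and 98.1 ± 2.08 in CKD (SD, n = 4; 0.07 ± 0.08, limma adjusted p = 0.913). Pex11g was at 14.9 ± 1.24 scaled reads in CKD TRF and 10.9 ± 1.38 in CKD (SD, n = 4; 0.42 ± 0.15, limma adjusted p = 0.705).

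CKD TRF kidneys were also set against Control, with the same Control libraries as for CKD. Of the metabolic genes 17 fell and none rose (median -0.69), and of the peroxins 7 fell and none rose (median -0.43), beside 17.9% of all tested genes called lower, 19.5% called higher and 37.5% called in all. Groups did not overlap for 14 metabolic genes and 4 peroxins, beside 31.9% of all tested genes. Of the 18 proximal tubule markers 13 fell, with a median of -0.64, and their part in these changes was not tested. Acox3 stood at -1.33 ± 0.11, Amacr at -1.10 ± 0.11, Pipox at -1.01 ± 0.14 and Dao at -0.93 ± 0.11 (limma adjusted p from 4.6e-08 to 1.5e-05). Ehhadh was called here, at -1.21 ± 0.38 (limma adjusted p = 0.0163), and stood at -0.62 without Control 1 (limma adjusted p = 0.0392). Pex14 fell by 0.73 ± 0.14 and Pex10 by 0.55 ± 0.16 (limma adjusted p = 4.2e-04 and 0.00951). Pex26 fell by 0.51 ± 0.16 and Pex5 by 0.46 ± 0.14 (limma adjusted p = 0.0148 and 0.0131), Pex26 not without CKD TRF 3 and Pex5 not without Control 1 (limma adjusted p = 0.0653 and 0.0605). The call of Pex2 ended without Control 1, Control 2, CKD TRF 2 or CKD TRF 3 (limma adjusted p from 0.0653 to 0.126). That of Pex13 ended without Control 1, Control 3, Control 4 or CKD TRF 2 (limma adjusted p from 0.0588 to 0.109). Without Control 1 the count of called peroxins was 4, all lower, beside 2063 lower and 2333 higher (31.5%) of all tested genes. Some members were called in only one of the comparisons with Control: Hsd17b4, Hacl1 and Pex11a in CKD, and Ehhadh, Gnpat, Cat, Pex5 and Pex26 in CKD TRF; none of them passed between CKD TRF and CKD. The call of Cat ended without Control 1, CKD TRF 3 or CKD TRF 4 (limma adjusted p from 0.0793 to 0.114), and that of Gnpat without any one of 10 of the 12 libraries (limma adjusted p from 0.0549 to 0.13). Pex11a was not called here (0.12 ± 0.11, limma adjusted p = 0.432). Without the 5 libraries with adipocyte markers the CKD TRF group is 1 library, whose spread is taken from the others. The median changes there were -0.64 for the metabolic genes and -0.36 for the peroxins, beside 0.01 over all tested genes.

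At the 3′ end, where QuantSeq reads lie, 7 of the 32 genes overlap another annotated gene within the last 500 bases. On the opposite strand these are an antisense RNA at Pex14, a long noncoding RNA at Pecr, Slc22a14 at Acaa1a and Dlec1 at Acaa1b, and on the same strand Podn at Scp2, Gm26904 at Pex6 and Gm49387 at Hacl1. The strand setting of the counting is not given in the sources used here, so reads of these pairs could be shared.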

How the data were processed

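Lexogen QuantSeq libraries were made from 500 ng of Trizol-extracted RNA, per the labels' protocols. Bowtie2, bedtools and mm10 are named, without roles, per the submitters' processing notes; the counting and scaling method is not given in the sources used here. The deposited log2 values, 1 per gene symbol and library, were read from their steps as log2(scaled reads + 1): at least 98.6% of values under 20 scaled reads were whole reads to within 0.1. Of 35 symbols with several entries the highest was kept, and reads were summed over the 23238 symbols. The worth of 3 reads, used as a limit of detection, covers counting error only.

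The upper 60% of genes by mean were tested in limma 3.58.1 under R 4.3.3 (a 3-group model, two-sided, variance trend on the mean level) with Benjamini-Hochberg adjustment over 13943 genes. This form was used because the files held log2 values. The script was tested on simulated data with 100 genes changed by 0.5, 50 by 1.0 and 50 by 2.0 on the log2 scale. In CKD TRF against CKD it called 29%, 60% and 98% of these. In CKD against Control it called 23%, 70% and 98%, and in CKD TRF against Control 32%, 76% and 98%. Smaller changes can thus be missed. A change on this scale understates that of genes near 0. The members, lists and motifs were chosen with earlier results of these data known. Libraries were listed for members called in CKD TRF against CKD, else for the 3 peroxins and 8 metabolic genes with the largest called changes in CKD against Control; of the other peroxisomal genes up to 4 called ones in each direction were named, except for results not reported here. Alternatives changed the scaling, filter, pseudocount, test (limma voom), groups fitted, replicate block and libraries; leaving out libraries with adipocyte markers (Adipoq above 3 on the log2 scale) and a covariate of adipocyte markers were added after seeing the data.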

Additional observations from a re-analysis of the deposited data

Results flagged for a closer look

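For each of the 32 genes and 3 groups, 96 sets of 4 libraries in all, it was asked whether 1 library lay far from the other 3. A set was marked when the gap to the nearest library was a larger part of the range than the critical value of Dixon's test, which chance gives in about 1 in 20 sets, and 4 sets were marked. Hao2 in CKD 2 stood at 6.04 on the log2 scale, against 6.66 for the next lowest CKD library. Pex13 in CKD TRF 2 stood at 4.36, against 4.66 for the next lowest CKD TRF library. Control 2 was the highest Control library for Pex11a, at 6.58 against 6.25 for the next, and for Acaa1a, at 6.91 against 6.69.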

How the results depend on the processing

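The counts of called members stayed within 1.5 times of those given except in these cases. Called peroxins in CKD against Control (6) came to 3 with libraries scaled to equal sums, 3 without the 5 libraries with adipocyte markers and 3 with adipocyte markers as a covariate, and to 3 to 6 when 1 library was left out. In CKD TRF against Control (7) they came to 2 with equal sums, 1 without the 5 libraries and 2 with the covariate, and to 4 to 7 with 1 library left out. With 1 library left out, called metabolic genes ranged from 13 to 17 in CKD against Control (16). In CKD TRF against Control (17) they ranged from 15 to 17. They came to 9 in CKD TRF against Control without the 5 libraries, where fewer libraries were fitted. The cause of the lower counts was not tested, either without the 5 libraries or for equal sums and the covariate. Without the 5 libraries, calls over all genes fell to 4037 (CKD against Control, 6333) and 1478 (CKD TRF against Control, 5225). Cat in CKD TRF against Control, called as lower, stood at 0.01 after quantile normalization (limma adjusted p = 0.955); the cause was not tested. No member was called in CKD TRF against CKD under any of the 24 alternatives, and no other called member changed sign under them. Replicate numbers are shared between groups, but same-numbered libraries did not deviate together (correlations of -0.18 to 0.11 over genes), and a fit with the replicate block called 6 peroxins and 16 metabolic genes in CKD against Control, 0 and 0 in CKD TRF against CKD, and 7 and 17 in CKD TRF against Control. The equal metabolic counts hold other genes: under the block Acox2 was called in both comparisons with Control (limma adjusted p = 0.0488 in CKD and 0.0425 in CKD TRF), Hsd17b4 was not in CKD (0.0523) and Gnpat was not in CKD TRF (0.0752). Depth limits the low peroxins most: Pex10, at 8.35 to 15.6 scaled reads, rests on far fewer reads than Scp2.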

Other observations

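Among the Control libraries, Control 1 was highest for Acox2, Ehhadh, Acaa1b, Scp2, Amacr, Decr2, Phyh, Hacl1, Gnpat, Abcd3, Pipox, Hao2 and Cat. It was not highest for the other metabolic genes, Acox3, Hsd17b4, Acaa1a, Pecr, Agps, Crot and Dao. Some genes of fatty acid handling outside the 32, picked after their values were seen, were also highest in Control 1, where Ehhadh was at 164 scaled reads. Acot1, a cytosolic acyl-CoA thioesterase, was at 92.9 scaled reads in Control 1 and 44.1 to 57.5 in the other 3 Control libraries. Ppara, the receptor that drives many peroxisomal genes, was at 151.5 scaled reads in Control 1 and 165 to 176 in the others.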
